A study of Mus musculus with 6 samples.

Results

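The genes described here are 9 chemokines that lung epithelium and the cells around it can make after bacterial injury: Cxcl1, Cxcl2, Cxcl3, Cxcl5, Cxcl10, Cxcl15, Cxcl16, Ccl2 and Ccl20. They were taken by symbol from the 23337 gene symbols counted in each of 6 RNA libraries, and all 9 were found. The libraries came from mouse alveolar type II cells (AT2 cells below), which make surfactant and serve as progenitors of the alveolus. Cells carrying the Tomato label were sorted by flow cytometry, and the labels place all samples 10 days after acute lung injury by Pseudomonas aeruginosa. The 3 mutant samples had the genotype SpC-CreER/Dlk1flox/ROSA-Tomato and the 3 wild-type samples SpC-CreER/ROSA-Tomato, so both groups carried the inducible Cre driven by the surfactant protein C promoter and the Tomato reporter, and both were injured. No uninjured group was analysed here, so the levels below describe injured lungs only. One label also mentions 8 days of culture, and it is unclear from the labels if that step applied to the sequenced cells. Whether each sample was taken from a separate animal is not in the labels. The p-values therefore reflect only sample-to-sample spread, which may be technical.

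Chemokines are small secreted proteins that guide leukocytes along a concentration gradient by binding receptors on their surface. Cxcl1, Cxcl2, Cxcl3, Cxcl5 and Cxcl15 belong to the CXC chemokines that attract neutrophils, for most of them through the receptor Cxcr2. Cxcl15, also called lungkine, is known as a product of mouse lung epithelium. Cxcl10 is an interferon-induced ligand of Cxcr3 on T cells. Cxcl16 is made as a membrane protein that is shed by the protease Adam10 and binds Cxcr6. Ccl2 attracts monocytes through Ccr2, and Ccl20 is the ligand of Ccr6.

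Promoters of 6 of the 9 genes were found in the RefSeq promoter table (GRCm38). They are shown because NF-κB is the classical inducer of most of these genes and because the most abundant one, Cxcl15, differs from its neighbours in this stretch. Capitals mark matches to GGGNNNTTCC, a pattern that covers many NF-κB sites, searched on both strands; adjoining capitals are overlapping matches. The first 5 lines run from 110 bases before the start site to 1 base before it, and the Cxcl10 line from 165 to 56 bases before it.
Cxcl1, chr5:90891135-90891244, plus strand: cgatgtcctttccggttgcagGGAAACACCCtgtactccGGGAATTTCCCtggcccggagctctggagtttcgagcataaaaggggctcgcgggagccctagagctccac
Cxcl2, chr5:90903789-90903898, plus strand: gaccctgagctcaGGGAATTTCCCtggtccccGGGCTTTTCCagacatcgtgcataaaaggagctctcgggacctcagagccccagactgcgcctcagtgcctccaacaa
Cxcl3, chr5:90785991-90786100, plus strand: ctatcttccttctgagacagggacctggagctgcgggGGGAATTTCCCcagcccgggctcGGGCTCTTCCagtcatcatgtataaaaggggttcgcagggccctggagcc
Cxcl15, chr5:90794424-90794533, plus strand: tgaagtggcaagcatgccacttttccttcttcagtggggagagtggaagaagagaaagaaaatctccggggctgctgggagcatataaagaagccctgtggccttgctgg
Ccl20, chr1:83116656-83116765, plus strand: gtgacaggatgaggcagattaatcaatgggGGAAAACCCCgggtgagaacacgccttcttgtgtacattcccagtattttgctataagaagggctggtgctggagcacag
Cxcl10, chr5:92348945-92349054, minus strand: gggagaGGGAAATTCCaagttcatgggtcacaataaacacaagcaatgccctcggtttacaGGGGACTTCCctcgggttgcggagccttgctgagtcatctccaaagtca

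The pattern was present in 5 of these 6 promoters, counted over the table's full window of 300 bases, and in 5.56% of all 32851 promoters of that table. Cxcl1, Cxcl2 and Cxcl3 share the identical match GGGAATTTCC, starting 71, 97 and 73 bases before the start site. The Cxcl15 window held no match, which says only that these letters are not in it. The TATA box letters TATAAA stood 27 bases before the Cxcl15 start and 30 bases before the Cxcl3 start, and in 13.6% of all promoters. A match is a description of the letters and not a measured binding site.

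Library totals were 23718958 to 30695994 counts in the mutant and 22511461 to 25332204 counts in the wild-type libraries. At this depth 3 counts, the limit that a count of 0 allows, correspond to 0.0977 to 0.133 CPM (counts per 1000000 library counts), and this limit covers counting error only. AT2 markers were abundant in every library: the 10 markers summed to 129174 to 142158 CPM in the mutant and 138023 to 160022 CPM in the wild-type libraries. The deleted gene Dlk1 had 2, 0 and 0 counts in mutants 1 to 3, against 2, 0 and 2 in wild types 1 to 3, too few to check the deletion. Mutant 1 stood apart: its summed neutrophil markers were 32.9 times, its fibroblast markers 31.3 times, its lymphocyte markers 25.5 times and its club cell markers 10.8 times the highest of the other 5 libraries. Wild type 2 stood apart in Xist, at 184.6 CPM against at most 2.93 CPM in the others. It stood apart in Ddx3y too, at 2.88 CPM against 49.8 to 78.2 CPM in the others. In such bulk samples, fewer cells of a type and less RNA per cell cannot be told apart.

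Cxcl15 dominated the chemokine transcripts of these cells. Its share of all counts was 0.935% ± 0.081 for the mutant and 1.21% ± 0.13 for the wild type (SD, 3 libraries each), and it was the 7th most counted gene in each of the 6 libraries. Of all counts of the 9 chemokines, 98.8% to 99.3% in the mutant and 99.2% to 99.4% in the wild-type libraries were Cxcl15. The remaining 8 genes together came to 74.4 to 98.8 CPM in the mutant and 83.9 to 89.8 CPM in the wild-type libraries.

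Levels were put on one scale by dividing CPM of the library total by the exon length of each gene in kilobases. On this scale Cxcl15 had a median of 4992 CPM per kilobase over the 6 libraries, with a range of 3985 to 6377. Cxcl16 followed at 25.3 (range 21.3 to 28.0) and Cxcl1 at 10.6 (range 9.24 to 13.5). These 3 genes kept their order in every library and their ranges did not overlap. Next came Cxcl10 at 1.15, Cxcl3 at 0.902, Cxcl5 at 0.885, Cxcl2 at 0.858 and Ccl20 at 0.781 CPM per kilobase. The ranges of neighbours among these 5 overlapped, so their order is not resolved by these libraries. Ccl2 was lowest, with a median of 0.183 and a range of 0 to 2.40 that overlapped that of Ccl20.

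**Figure D1:**
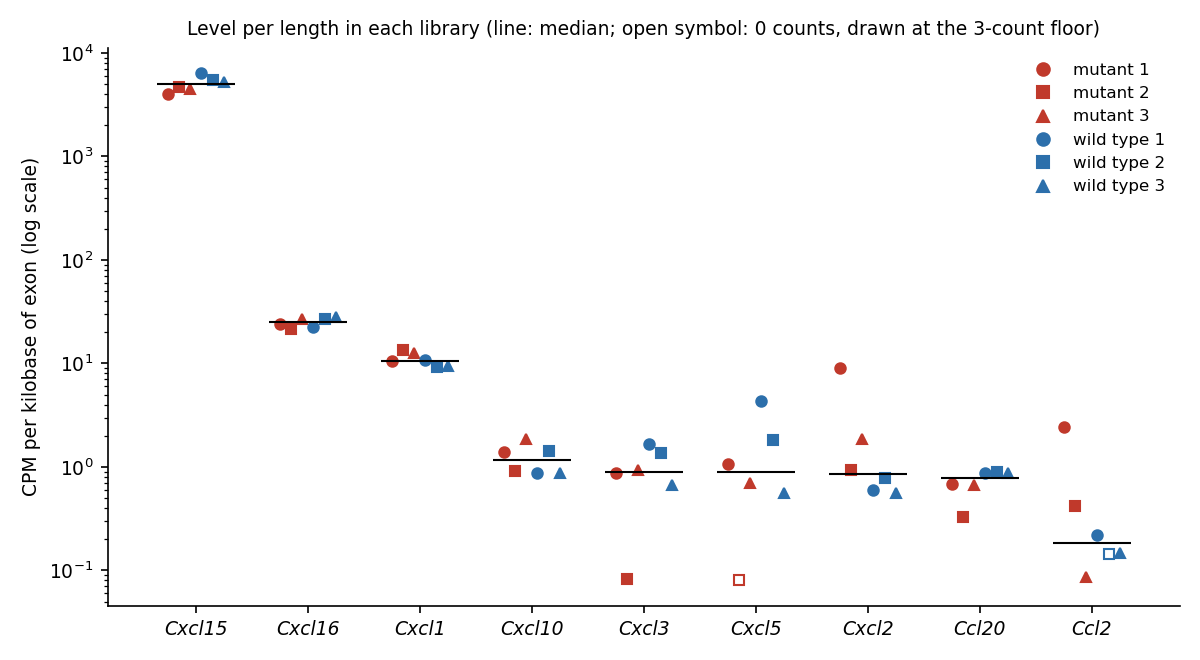
Level of each of the 9 chemokine genes in each library, as CPM per kilobase of exon on a log axis, with mutant libraries in red, wild-type libraries in blue and a line at the median of 6. Cxcl15 lies at 3985 to 6377, Cxcl16 and Cxcl1 form separate bands below it, and Cxcl2 and Ccl2 each have mutant 1 as the highest point; open symbols are counts of 0 drawn at the limit of 3 counts.

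The gene order on chromosome 5 sets these levels side by side. In the RefSeq annotation the protein-coding genes run Cxcl5, Ppbp, Pf4, Cxcl3, Cxcl15, Cxcl1 and Cxcl2, so Cxcl15 sits between Cxcl3 and Cxcl1. Per kilobase, Cxcl15 exceeded its neighbour Cxcl1 by 351 to 597 times in single libraries, with a median of 469.6 times. It exceeded Cxcl3, on its other side, by a median of 4688 times. Cxcl10 lies apart from this cluster on the same chromosome, Cxcl16 and Ccl2 lie on chromosome 11 and Ccl20 on chromosome 1. Cxcl1, Cxcl2 and Cxcl3 are close paralogs, and no source used here states what was done with reads that match more than 1 of them, so their levels are uncertain to that extent.

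The genotypes were compared to ask whether AT2 cells with the Dlk1flox allele differ in these transcripts after injury. Of the 9 genes, 8 passed the filter on low counts and were tested with edgeR's quasi-likelihood test. None of the 8 passed a Benjamini-Hochberg adjusted p of 5%, where 0% of the 12899 genes tested passed (lowest adjusted p of a chemokine 0.737). At an unadjusted p under 0.05, 1 chemokine was higher (Cxcl2; 3.69% of all tested genes) and 1 was lower (Cxcl15; 2.89% of all tested genes). The Cxcl15 value did not stay under 0.05 with the replicate number as a block (edgeR unadjusted p = 0.0689), while that of Cxcl2 did (0.0387). In limma-voom it was the reverse, with an unadjusted p of 0.0107 for Cxcl15 and 0.0534 for Cxcl2. Without wild type 1 neither stayed under 0.05 (edgeR unadjusted p = 0.103 for Cxcl15 and 0.0536 for Cxcl2). The edgeR unadjusted p of Cxcl15 was also above 0.05 with no filter on low counts (0.0979) and without mutant 3 (0.0586). That of Cxcl2 was above 0.05 without wild type 3 (0.0559). DESeq2 and limma-voom also called none of the 8 at 5%, while DESeq2 called 0.299% of the genes to which it gave an adjusted p and limma-voom 0%. Log2 fold changes were positive for 3 and negative for 5 of the 8, with a median of -0.29 (-0.22 without mutant 1), beside a median of 0.00 and 51.1% positive over all tested genes. Of the 9 genes, 1 had all mutants above all wild types (Cxcl2; 5.23% of all tested genes) and 2 had all mutants below (Cxcl15 and Ccl20; 6.43% of all tested genes). Together these were 3 genes without overlap, where 11.7% of all tested genes had none.

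Cxcl15 stood at 7933, 10218 and 9511 TMM-normalised CPM (CPM scaled for library composition) in mutants 1 to 3, against 13954.5, 11814 and 11337 in wild types 1 to 3. Every mutant library lay below every wild-type library, with the lowest value in mutant 1 and the highest in wild type 1. The means were 9220.4 ± 1170 in the mutant and 12369 ± 1394 in the wild type (SD, 3 libraries each). The log2 fold change was -0.42 ± 0.15 (SE; 95% interval -0.78 to -0.07), with an unadjusted p of 0.0245 and an edgeR adjusted p of 0.737. Without mutant 1 it was -0.33 (95% interval -0.63 to -0.02), with an edgeR adjusted p of 0.819, and without wild type 2 it was -0.46. With the replicate number as a block it was -0.43 (95% interval -0.90 to 0.05; edgeR unadjusted p = 0.0689 and adjusted p = 0.725), so the interval then included 0.

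The AT2 marker genes also had negative log2 fold changes, 10 of 10, with a median of -0.16 and none past the threshold. Without mutant 1 their median was -0.09 and 1 of 10 was positive. As ratios to these transcripts within each library, the groups did not overlap for Cxcl15. The share of all genes without overlap on such ratios was not computed. Cxcl15 had 18.7, 20.5 and 20.1 counts per 100 counts of Sftpc, the surfactant protein C gene, in mutants 1 to 3, against 25.0, 23.1 and 22.4 in wild types 1 to 3. Per 100 counts of the 10 AT2 markers it had 6.56, 7.08 and 6.95 in the mutants, against 8.48, 7.94 and 8.09 in the wild types. The part of the AT2 transcript level in the Cxcl15 difference was not tested, and an exact permutation test of 3 against 3 cannot go below 0.10.

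Cxcl16, the membrane-bound chemokine, was second in level, and of the 6 chemokines with at least 10 counts in every library it had the smallest spread, 0.15 on the log2 scale (root mean square about the mean). It had 60.4, 58.4 and 71.9 TMM-normalised CPM in mutants 1 to 3, against 63.1, 72.9 and 76.6 in wild types 1 to 3. The groups overlapped. The log2 fold change was -0.16 (95% interval -0.42 to 0.11; edgeR adjusted p = 0.777). Adam10, which sheds the Cxcl16 protein, stood at 121, 152 and 132 TMM-normalised CPM in the mutant and 99.4, 109 and 115 in the wild-type libraries. For Adam10 the groups did not overlap, as for 11.7% of all tested genes. Its log2 fold change was 0.32 ± 0.11 (edgeR adjusted p = 0.737, not past the threshold) and 0.40 without mutant 1. The related protease gene Adam17 had a log2 fold change of 0.04 (95% interval -0.19 to 0.28).

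Cxcl1, a main neutrophil attractant of the mouse, had 9.42, 13.05 and 11.9 TMM-normalised CPM in mutants 1 to 3, against 10.5, 8.93 and 9.04 in wild types 1 to 3. Mutants 2 and 3 lay above all wild types and mutant 1 lay among them. The log2 fold change was 0.27 (95% interval -0.13 to 0.68; edgeR adjusted p = 0.758). Without mutant 1 the groups did not overlap, as for 22.8% of all tested genes in that comparison, and the log2 fold change was 0.40 (95% interval 0.03 to 0.77) with an edgeR adjusted p of 0.819.

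Cxcl2 differed from its neighbour Cxcl1 in which library was high. It had 15.5, 1.75 and 3.46 TMM-normalised CPM in mutants 1 to 3, against 1.14, 1.48 and 1.06 in wild types 1 to 3. Mutant 1 was far above the rest, mutant 3 came next, and mutant 2 lay just above the highest wild type. The means were 6.92 ± 7.52 in the mutant and 1.23 ± 0.22 in the wild type (SD, 3 libraries each), so the mutant SD exceeded its mean. The log2 fold change was 2.49 ± 0.79 (SE; 95% interval 0.63 to 4.36; edgeR unadjusted p = 0.0157 and adjusted p = 0.737). Leaving out mutant 1 brought it to 1.09 (95% interval 0.06 to 2.11; edgeR adjusted p = 0.819). Per kilobase of exon, Cxcl2 was at 8.94 CPM in mutant 1, near the 10.6 CPM of Cxcl1 there, while in the other 5 libraries it was at 0.561 to 1.86 CPM and Cxcl1 at 9.24 to 13.5 CPM.

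Cxcl3 and Cxcl5, relatives of Cxcl1 and Cxcl2, were high in other libraries than those. Cxcl3 had 27, 2 and 27 counts in mutants 1 to 3, against 38, 35 and 17 in wild types 1 to 3. Cxcl5 had 52, 0 and 31 counts in the mutants, against 154, 73 and 22 in the wild types. Both were highest in wild type 1, second in wild type 2 and lowest in mutant 2, and for both the groups overlapped.

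The Cxcl3 log2 fold change was -1.02 (95% interval -2.91 to 0.87; edgeR adjusted p = 0.792). That of Cxcl5 was -2.00 (95% interval -4.89 to 0.90; edgeR adjusted p = 0.752), and it was -1.09 without wild type 1 and -2.66 without mutant 1. The 0 of Cxcl5 in mutant 2 allows up to 0.126 CPM. The intervals leave room for large differences in either direction at these counts.

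Cxcl10, the interferon-induced ligand, had 65, 33 and 80 counts in mutants 1 to 3, against 30, 55 and 33 in wild types 1 to 3. Mutant 3 was highest and the groups overlapped. The log2 fold change was 0.34 (95% interval -0.65 to 1.32; edgeR adjusted p = 0.862) and 0.05 without mutant 3. Ccl20, the Ccr6 ligand, had 30, 11 and 27 counts in the mutants, against 28, 32 and 31 in the wild types. As TMM-normalised CPM these were 0.915, 0.471 and 0.952 in the mutants, against 1.28, 1.28 and 1.26 in the wild types. Every mutant lay below every wild type on this scale. In raw counts mutant 1, at 30, lay above wild type 1, at 28, so this order rests on the scaling of low counts. At such counts the closeness of the wild types carries little weight. The Ccl20 log2 fold change was -0.70 (95% interval -1.75 to 0.34; edgeR adjusted p = 0.762), with mutant 2 the lowest.

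Ccl2, the monocyte attractant, had 60, 8 and 2 counts in mutants 1 to 3, against 4, 0 and 3 in wild types 1 to 3. It was above 10 counts in mutant 1 alone, which was too few libraries for the filter, so it was not tested with the other genes. With no filter on low counts its log2 fold change was 2.82 (95% interval -0.50 to 6.14; edgeR adjusted p = 0.746).

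**Figure D2:**
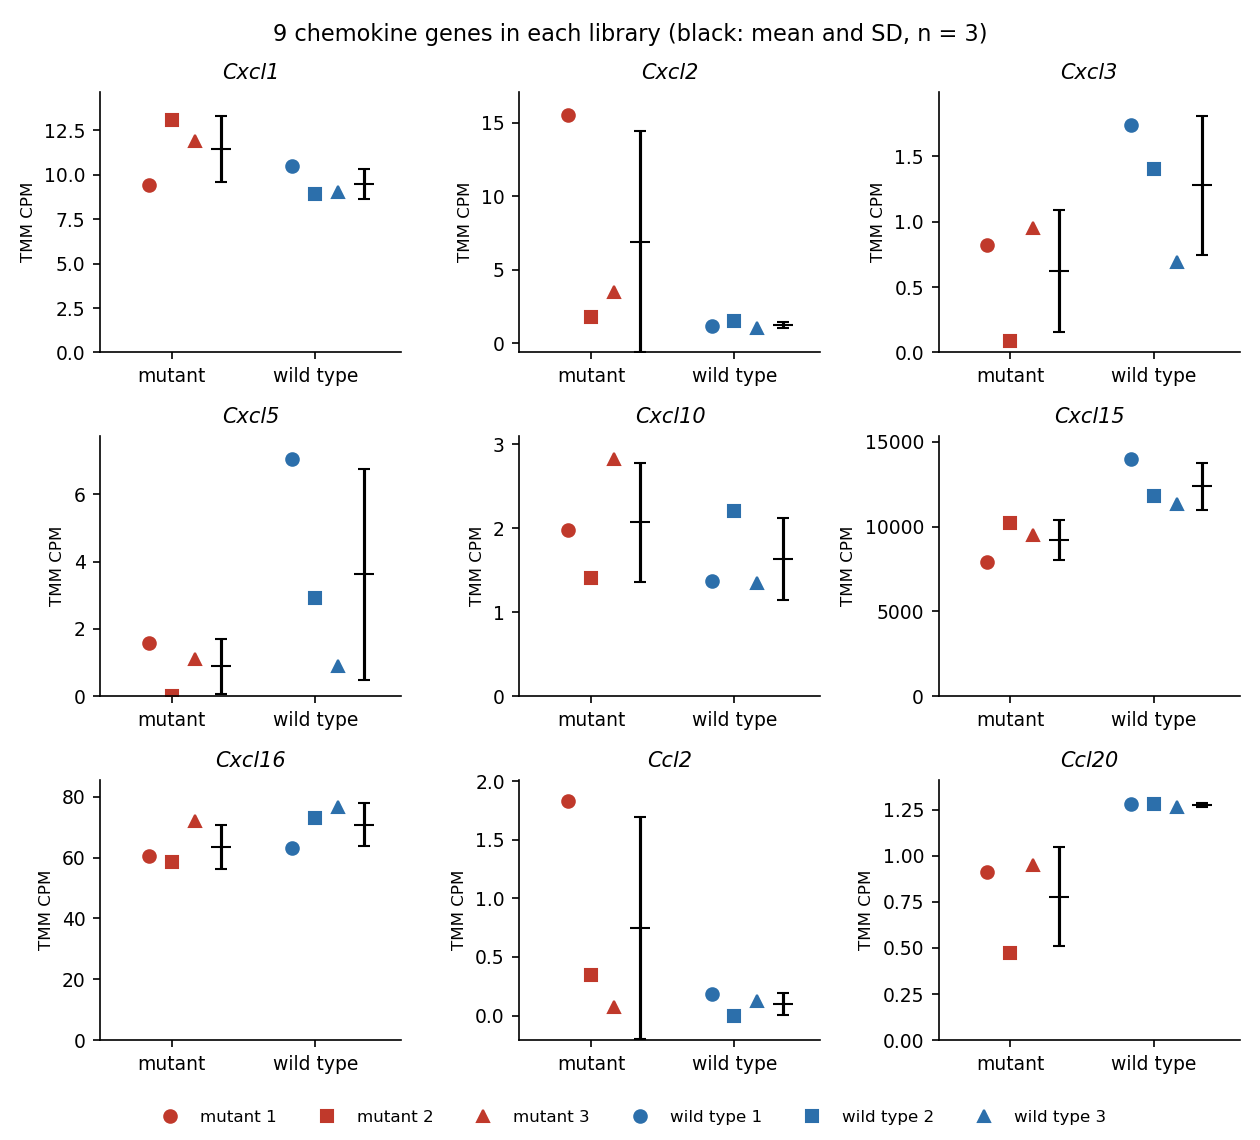
TMM-normalised CPM of each of the 9 chemokine genes, 1 panel per gene, with a point for each mutant (red) and wild-type (blue) library and the mean with its SD (n = 3) in black; each vertical axis has its own scale and includes 0. The mutants lie below the wild types for Cxcl15 and Ccl20 and above them for Cxcl2, where mutant 1 alone reaches 15.5.

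**Figure D3:**
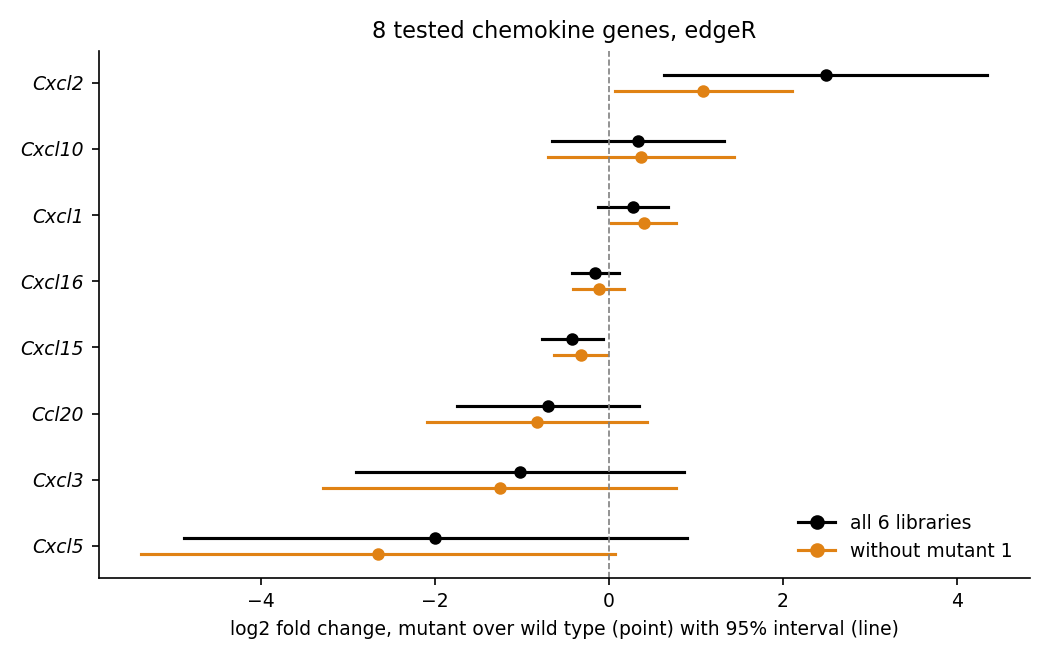
Log2 fold change, mutant over wild type, with its 95% interval for the 8 tested chemokine genes, with all 6 libraries (black) and without mutant 1 (orange). The Cxcl2 value is 2.49 with mutant 1 and 1.09 without it, and the sign of each gene is the same in both.

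The genes were then separated by how they stood in mutant 1. A gene counted as seen mainly in mutant 1 where its CPM there was at least 5 times that of each other library, which held for 3.65% of all tested genes. Ccl2 met this, at 1.95 CPM in mutant 1 against 0 to 0.337 CPM elsewhere, a ratio of 5.795 to the highest. Ccl2 did not pass the filter on low counts, so the share of tested genes does not cover genes like it. Cxcl2 lay just outside, at 16.6 CPM in mutant 1 against 1.04 to 3.46 CPM elsewhere, a ratio of 4.80. The other 7 genes were lower in mutant 1 than in at least 1 other library, with ratios of 0.248 to 0.855 to the highest, and the AT2 marker sum had a ratio of 0.807. Among these 7, Cxcl15, Cxcl16, Cxcl1, Cxcl10 and Ccl20 had at least 10 counts in every library, as did Cxcl2. Cxcl3 and Cxcl5 did not, with 2 and 0 counts in mutant 2.

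Markers of most other cell types were also highest in mutant 1. The 10 macrophage and monocyte markers summed to 492, 49.8 and 90.5 CPM in mutants 1 to 3, against 100.04, 46.8 and 68.4 in wild types 1 to 3, with 8 of 10 highest in mutant 1. Marco, a scavenger receptor of alveolar macrophages, was not highest there, with 27 counts in mutant 1 and 59 in wild type 1, and both Marco and Siglecf were at 0 in mutant 2. The 6 matched neutrophil markers were all highest in mutant 1, with sums of 67.4 CPM there, 0.885 and 2.05 CPM in mutants 2 and 3 and 0.762 to 1.82 CPM in the wild types. S100a8, a calcium-binding protein of neutrophils, had 0 counts in mutant 2 and wild type 3. The 6 fibroblast markers summed to 213 CPM in mutant 1 against 3.37 to 6.82 CPM elsewhere, where the matrix gene Lum was at 0. All 5 leukocyte, 7 matched lymphocyte, 5 endothelial, 4 mesothelial and 5 club cell markers were highest in mutant 1 too, as were 4 of 5 ciliated markers. For AT1 markers it was 3 of 8 and for AT2 markers 0 of 10, where 37.2% of all tested genes were highest in mutant 1. Some neutrophil, lymphocyte, fibroblast, endothelial and mesothelial markers did not pass the filter on low counts, so this share does not cover them. The AT1 marker sum in mutant 1 was 0.886 times the highest of the other libraries. The part of other cell types in the Cxcl2 and Ccl2 values was not tested.

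**Figure D4:**
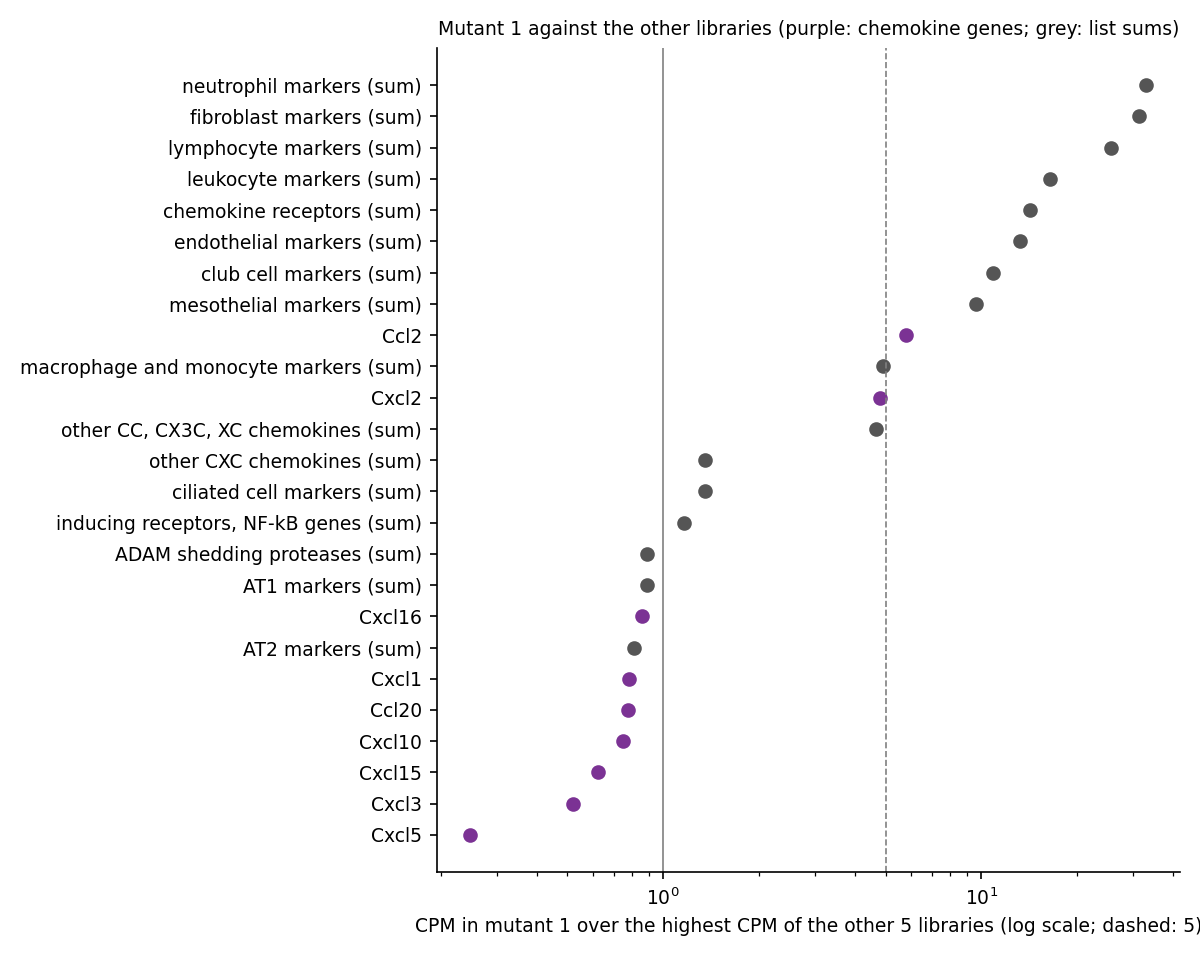
CPM in mutant 1 divided by the highest CPM among the other 5 libraries, on a log axis, for each chemokine gene (purple) and for the summed level of each gene list (grey), with lines at 1 and 5. Ccl2 (5.795) and Cxcl2 (4.80) lie near the sums of the macrophage and monocyte markers (4.92) and of the other CC, CX3C and XC chemokines (4.68). The mesothelial, club cell, endothelial, leukocyte, lymphocyte, fibroblast and neutrophil marker sums lie higher, at 9.60 to 32.9. The ciliated marker sum lies at 1.35. The other 7 chemokine genes lie below 1 with the AT2 markers (0.807).

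The rest of the chemokine family was examined for comparison. Of 27 other chemokine genes, 9 passed the filter and 6 had at least 10 counts in every library. With more than 3 counts in mutant 1, 12 of the 27 were at least 5 times higher there than in each other library. Of all tested genes 3.65% met this ratio, a share that leaves out genes too low for the filter. None of the 9 passed the threshold in edgeR or DESeq2, and 0 had an unadjusted p under 0.05. The 2 tested CXC genes had a median log2 fold change of -0.40, and the 7 tested CC and CX3C genes one of 0.78, which was -0.19 without mutant 1. Cxcl17, a chemokine of mucosal epithelium, was the most abundant of the other CXC genes over the 6 libraries, with 26.7, 24.9 and 15.2 TMM-normalised CPM in the mutant and 28.3, 23.2 and 19.6 in the wild-type libraries, and a log2 fold change of -0.09 (95% interval -0.63 to 0.45). Cx3cl1, a membrane-bound chemokine, stood at 25.4, 19.0 and 26.3 in the mutant and 23.3, 28.4 and 32.1 in the wild-type libraries. For both the groups overlapped.

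Ccl6 and Ccl5, which leukocytes make, had their high values in mutant 1. Ccl6 had 3870 counts in mutant 1 and 64 to 302 in the others, and Ccl5 had 472 in mutant 1 and 0 to 30 in the others. Their log2 fold changes were 2.56 and 3.61 with all libraries and -0.08 and 0.37 without mutant 1. The platelet chemokine gene Pf4 had 99, 15 and 45 counts in the mutants, against 58, 58 and 89 in the wild types, with a log2 fold change of -0.71 (edgeR adjusted p = 0.796). Cxcl12, an attractant of Cxcr4-bearing cells, had 211, 26 and 10 counts in the mutants, against 6, 8 and 3 in the wild types.

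Chemokine receptors, most of which leukocytes carry, were low outside mutant 1. The 23 receptor genes together came to 254 CPM in mutant 1, 10.1 and 17.9 CPM in mutants 2 and 3 and 11.5 to 13.6 CPM in the wild types. All 23 chemokine receptor genes had their highest CPM in mutant 1, and 15 of the 23 were at least 5 times above each other library. Among all tested genes these shares were 37.2% and 3.65%. Only 7 of the 23 receptors passed the filter on low counts, so those shares do not cover the rest. Cxcr2, the receptor of the neutrophil attractants, had 79, 0 and 4 counts in mutants 1 to 3, against 0 in each wild type. Ccr2, the receptor of Ccl2, had 546, 5 and 41 counts in the mutants, against 12, 3 and 1 in the wild types. Cxcr6, the receptor of Cxcl16, had 296, 3 and 26 counts in the mutants, against 4, 4 and 5 in the wild types. Ccr6, the receptor of Ccl20, was less one-sided, with 187, 19 and 12 counts in the mutants, against 34, 71 and 12 in the wild types.

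Of the 7 tested receptors none passed the threshold, and 3 had an unadjusted p under 0.05 on the higher side, Ccr7, Ccr2 and Cxcr5. All 7 log2 fold changes were positive with a median of 2.43, and without mutant 1 the median was 0.18 with 4 of 7 positive. Ccr7, a lymph-node homing receptor, had a log2 fold change of 5.07 with all libraries and 1.67 without mutant 1, with 2298, 54 and 69 counts in the mutants, against 25, 7 and 20 in the wild types.

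**Figure D5:**
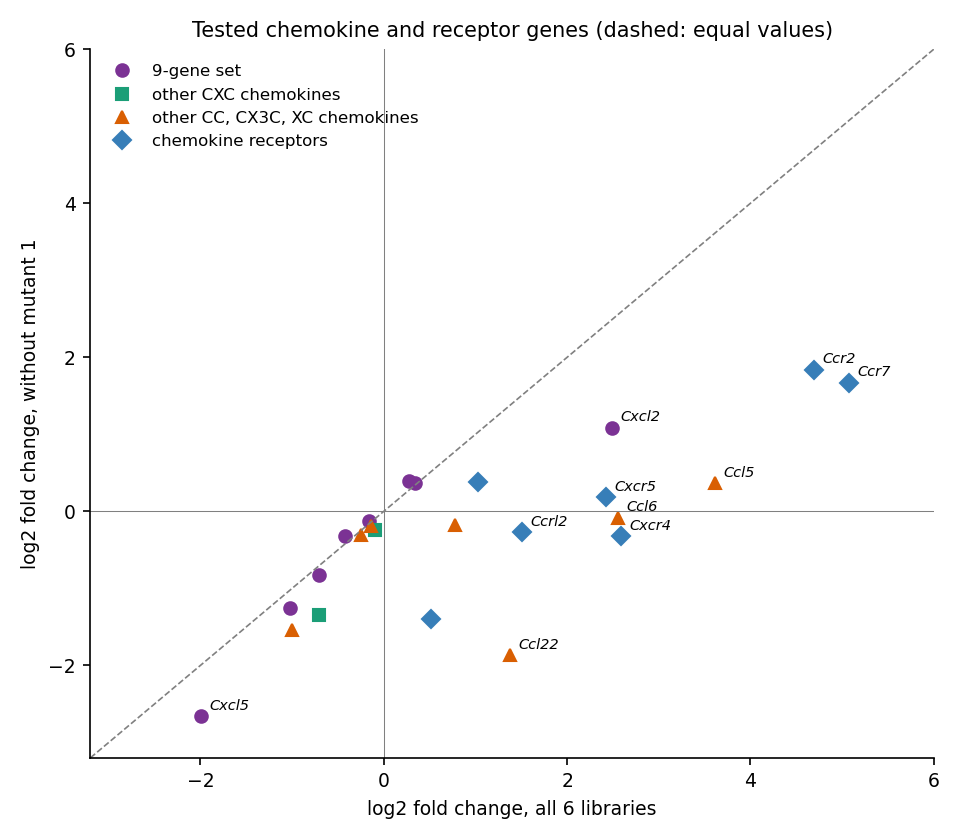
Log2 fold change, mutant over wild type, with all 6 libraries (horizontal) and without mutant 1 (vertical) for the tested genes among the 9 chemokines (purple), the other chemokines (green and orange) and the chemokine receptors (blue); the dashed line marks equal values. Most of the 9-gene set lies near the line, while Cxcl2 (2.49 and 1.09), Ccl5 (3.61 and 0.37), Ccr2 and Ccr7 lie far below it.

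Genes that carry the signals inducing chemokines in epithelium were present in every library. Of 20 tested receptors and NF-κB genes none passed the threshold, 12 were positive and 8 negative, and the median log2 fold change was 0.11 (0.01 without mutant 1). Nfkb1, a subunit of NF-κB, stood at 139, 128 and 129 TMM-normalised CPM in the mutant and 138, 125 and 140 in the wild-type libraries, with a log2 fold change of -0.02 (95% interval -0.20 to 0.16). Nfkbia, the NF-κB inhibitor and target gene, had -0.36 (-0.80 to 0.09) and Nfkbiz, a nuclear co-factor for chemokine genes, 0.14 (-0.35 to 0.63).

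The smallest p-values of the list were those of Tnfrsf1a, a TNF receptor, at -0.21 ± 0.07, and Ifngr2, an interferon-γ receptor chain, at 0.34 ± 0.13, each with an edgeR adjusted p of 0.737. For both the groups did not overlap, as for 11.7% of all tested genes. Tlr2, a sensor of bacterial lipoproteins, was the gene of this list at least 5 times higher in mutant 1, with 985 counts there and 49 to 157 in the others. Tnfaip3, an NF-κB target gene that encodes a feedback inhibitor of the pathway, came next at 5402 counts in mutant 1, against 754 to 979 elsewhere. Its log2 fold change was 1.14 (95% interval -0.31 to 2.58; edgeR adjusted p = 0.739) and -0.07 without mutant 1, and the groups overlapped.

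Genes with the most similar profile over the 6 libraries were taken by the root mean square difference of centred log2 TMM-normalised CPM. For Cxcl15 they were Zdhhc3, Acot7 and Mthfs, with differences of 0.04 to 0.05 where the spread of Cxcl15 itself was 0.26. For Cxcl16 they were Slmo2, Wars2 and Uvrag, for Cxcl1 Oraov1, 1700020I14Rik and Ythdf2, for Cxcl10 1700112E06Rik, Zfp697 and Chek2, and for Ccl20 Frat1, Tmem39b and Zfp189. For Cxcl2 they were Evi2a, Trib2 and Calcrl, with larger differences of 0.22 to 0.24 and a spread of 1.17. None of the 3 genes nearest to any of these 6 chemokines was another of the 9. Only 8 of the 12899 tested genes were chemokines of this set, so this outcome was likely beforehand and says little about them. The closeness of these profiles was not tested.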

How the data were processed

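The authors deposited 1 file per library of raw whole-number counts per gene symbol. Per the labels' protocols, libraries were made with a TruSeq mRNA kit and run on 1 flow cell, and the submitters' processing notes name mm9, CASAVA and DESeq2. No source used here names the aligner, counter, annotation or strand handling.

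Groups came from the sample titles. Counts were filtered with filterByExpr by group, scaled by TMM and tested with edgeR 4.0.16 (quasi-likelihood F-test, two-sided, R 4.3.3), with Benjamini-Hochberg adjustment over the 12899 genes tested and a 5% threshold. DESeq2 1.42.0 and limma-voom with sample quality weights (limma 3.58.1) were alternatives, beside other scalings and filters, a replicate block and leaving out each library. Profiles were compared with a pseudocount of 0.5 CPM.

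Exon lengths were unions of GENCODE M21 basic exons (GRCm38), while the counts are on mm9. Promoter sequences are from RefSeq, GRCm38. The table held no promoter of Cxcl5, Cxcl16 and Ccl2 under these symbols, and none is shown. Of 152 genes in all lists, 8 matched through an older symbol and 2 did not match.

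The 9 genes and all lists were chosen with earlier results of these data known. Named genes of other lists were the 3 with the smallest p and the 3 with the highest level, of which some are given. Cxcr2, Cxcr6, Ccr6, S100a8, Marco, Siglecf, Lum, Xist and Ddx3y were chosen after their values were seen.

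Replicates differed beyond sampling noise (chi-square per degree of freedom 18.4 to 76.7). Same-numbered libraries of the genotypes deviated together, with correlations of 0.31, 0.21 and 0.17, each above 0.1. From the data alone the numbers may mark pairs, which the labels do not state. Values here are from fits without pairs, except where the replicate block is named.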

Additional observations from a re-analysis of the deposited data

How the results depend on the processing

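No chemokine changed the sign of its log2 fold change or passed the 5% threshold under any alternative run. The lowest adjusted p among them was 0.116, for Cxcl2 in DESeq2. With the replicate block the Cxcl2 log2 fold change was 1.90 and that of Cxcl15 -0.43 with an unadjusted p of 0.0689. The block left the count of genes past the 5% adjusted threshold at 0, and it changed no adjusted call. Over all alternatives Cxcl2 ranged from 1.09 to 2.94, Cxcl15 from -0.51 to -0.32, Cxcl1 from 0.17 to 0.40 and Cxcl5 from -2.72 to -1.09. Over all genes edgeR called 0, while 476 higher and 373 lower genes had an unadjusted p under 0.05. DESeq2 called 38 genes, and 22 without mutant 1; the cause was not tested. Leaving out 1 library in edgeR gave 0 to 1 genes, the 1 being Gpr133 without wild type 3, chosen after its value was seen. Genes seen mainly in mutant 1 numbered 1 at a ratio of 5 on either CPM scale and 2 at a ratio of 3, when Cxcl2 joins Ccl2. At a ratio of 10 they numbered 0, as the highest ratio was 5.795 (Ccl2). By construction the number cannot rise as the ratio is raised. Cxcl3 was not tested under the filter of 1 CPM in 3 libraries. Depth limits Cxcl3, Cxcl5, Cxcl10, Ccl2 and Ccl20, which had at most 154 counts in any library.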
